A study of Mus musculus with 8 samples.

Results

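The genes of the major histocompatibility complex (MHC) were compared in liver of New Zealand Obese (NZO) and C57BL/6 (B6) mice. The members were all array probes whose gene name starts with H2- and those of B2m, Cd74, Tap1, Tap2, Tapbp, Psmb8, Psmb9 and Ciita, which gave 48 genes on 64 probes, out of 34836 gene names on 55681 probes. The study looked for gene variants in miRNA binding sites within regions linked to obesity and diabetes, with expression differences between these strains as one of its inputs. Liver RNA came from 4 NZO and 4 B6 males, with 1 1-colour Agilent array per mouse. All mice had a diet with 45% fat, and the labels give an age of 6 weeks. Both are inbred strains without transgenes or other treatments, so strain and genotype differ at many loci at once. Levels are given as log2 signal relative to the 75th percentile of the array, fold changes as NZO minus B6 on the same scale, and a probe was called at an adjusted p of at most 0.05 (limma, Benjamini-Hochberg over all 55681 probes) and a log2 fold change of at least 0.7 in either direction. The signal of a probe depends on how well it binds, so the level of a gene was compared between strains and not with that of another gene, and sums over a list weigh its brightest probes most.

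MHC molecules carry peptides to the cell surface. Class I molecules are made by nearly all cells and show peptides of the cell's own proteins to CD8 T cells. They consist of a heavy chain (H2-K, H2-D and, in some strains, H2-L) and beta-2-microglobulin, and the immunoproteasome cuts their peptides, which TAP pumps into the endoplasmic reticulum. The class Ib heavy chains of the Q, T and M regions resemble them but vary less between strains and mostly have narrower roles. Class II molecules are pairs of an alpha and a beta chain, A or E. They are made mainly by dendritic cells, B cells and macrophages, of which the liver holds many as Kupffer cells, and they load peptides of ingested proteins with the help of the invariant chain and DM. B6 mice carry the b haplotype of the complex, in which the promoter of H2-Ea is deleted and no E molecule is made. The heavy chain, A and E genes are among the most variable of the mouse genome, and the array probes of 60 bases were designed on reference sequences. The NZO sequence under the probes was not analysed here, so a difference in RNA and a difference in binding to the probe cannot be told apart for any member.

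The probes of the class II chains H2-Ea-ps, H2-Aa and H2-Ab1 are shown first, since the A and E chains make up the class II molecules. The probes of H2-Ea-ps (chr17:34481469-34481528, minus strand, mm9) and H2-Aa (chr17:34421285-34421344, minus strand, mm9) start at bases 166 and 227 of their transcripts, in the part that encodes the chain, and each has 1 reading frame without a stop codon. The files name the first gene H2-Ea-ps, a name that the current RefSeq table lists under H2-Ea.
H2-Ea-ps probe: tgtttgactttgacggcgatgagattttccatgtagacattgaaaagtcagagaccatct
H2-Aa probe: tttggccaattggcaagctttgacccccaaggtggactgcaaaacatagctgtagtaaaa
H2-Ab1 had 2 probes near the end of its transcript (chr17:34406296-34406355 and chr17:34406305-34406363, plus strand, mm9) that overlap by 51 bases and differ there at 1 base. The difference is T51C, counted from 1 at the 5′ end of the first probe, and stands in capitals in windows of 25 bases.
H2-Ab1 probe A_55_P1962747: acaaataaacgagacTcagactctg
H2-Ab1 probe A_55_P2146560: acaaataaacgagacCcagactctg
H2-Q10 and H2-Q2, both of class Ib, had probes that overlap by 50 bases in the coding part of the heavy chain. They differ at 5 bases (A4G, C15T, A24C, G25A and G31C, from the H2-Q10 to the H2-Q2 probe and counted from 1 at the 5′ end of the H2-Q10 probe), shown in capitals.
H2-Q10 probe A_55_P1995092: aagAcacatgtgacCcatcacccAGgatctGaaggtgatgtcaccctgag
H2-Q2 probe A_51_P425048: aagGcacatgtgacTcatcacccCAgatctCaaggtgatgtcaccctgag

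One mouse stood apart from its strain in the values of the members. In 1 strain or both, 37 member genes were above background in all 4 mice, and 32 of them had their highest B6 value in B6 015. The share of all genes that were highest in this mouse was not counted, so the count cannot be read as particular to the members. The summed signal of the 9 class II genes above background was 42.8, 38.4, 40.2 and 99.8 times the 75th percentile in B6 009, 010, 011 and 015, against 31.5, 40.1, 29.5 and 24.5 in NZO 003, 007, 009 and 011. The markers of macrophages and Kupffer cells were also highest in B6 015 in 6 of 7 cases, with a summed signal of 179 against 109, 121 and 138 in B6 009, 010 and 011. The count was 3 of 6 for dendritic cells, 2 of 4 for T cells and 2 of 3 for leukocytes in general. It was 1 of 5 for hepatocytes, 0 of 4 for B cells and 0 of 4 for sinusoidal endothelium. Results on the class II genes above background are therefore given with and without this mouse.

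Over all members, 8 probes were higher in NZO and 4 were lower, which is 12.5% and 6.25% of 64 probes. Of all probes on the array, 2% were higher and 2.44% were lower. Read at the brightest probe of each gene, 5 of 48 genes were higher (H2-Ea-ps, Tap2, H2-Q10, H2-T24 and H2-Bl) and 3 were lower (H2-Ab1, H2-Oa and H2-Q1), beside 2.33% and 2.55% of all genes. The median log2 fold change was 0.00 over the 48 genes and 0.09 over all genes on the array. Only the slide of NZO 003, B6 010 and B6 015 held both strains, so a fit with a fixed slide effect rested on these 3 arrays. limma then called no member at the adjusted p. Its log2 fold changes are given below as values within the slide, and they include B6 015 on the B6 side. For the 9 class II genes above background, the difference of NZO 003 and B6 010 alone is given beside them. This choice was made after the values were seen and without a test.

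**Figure D1:**
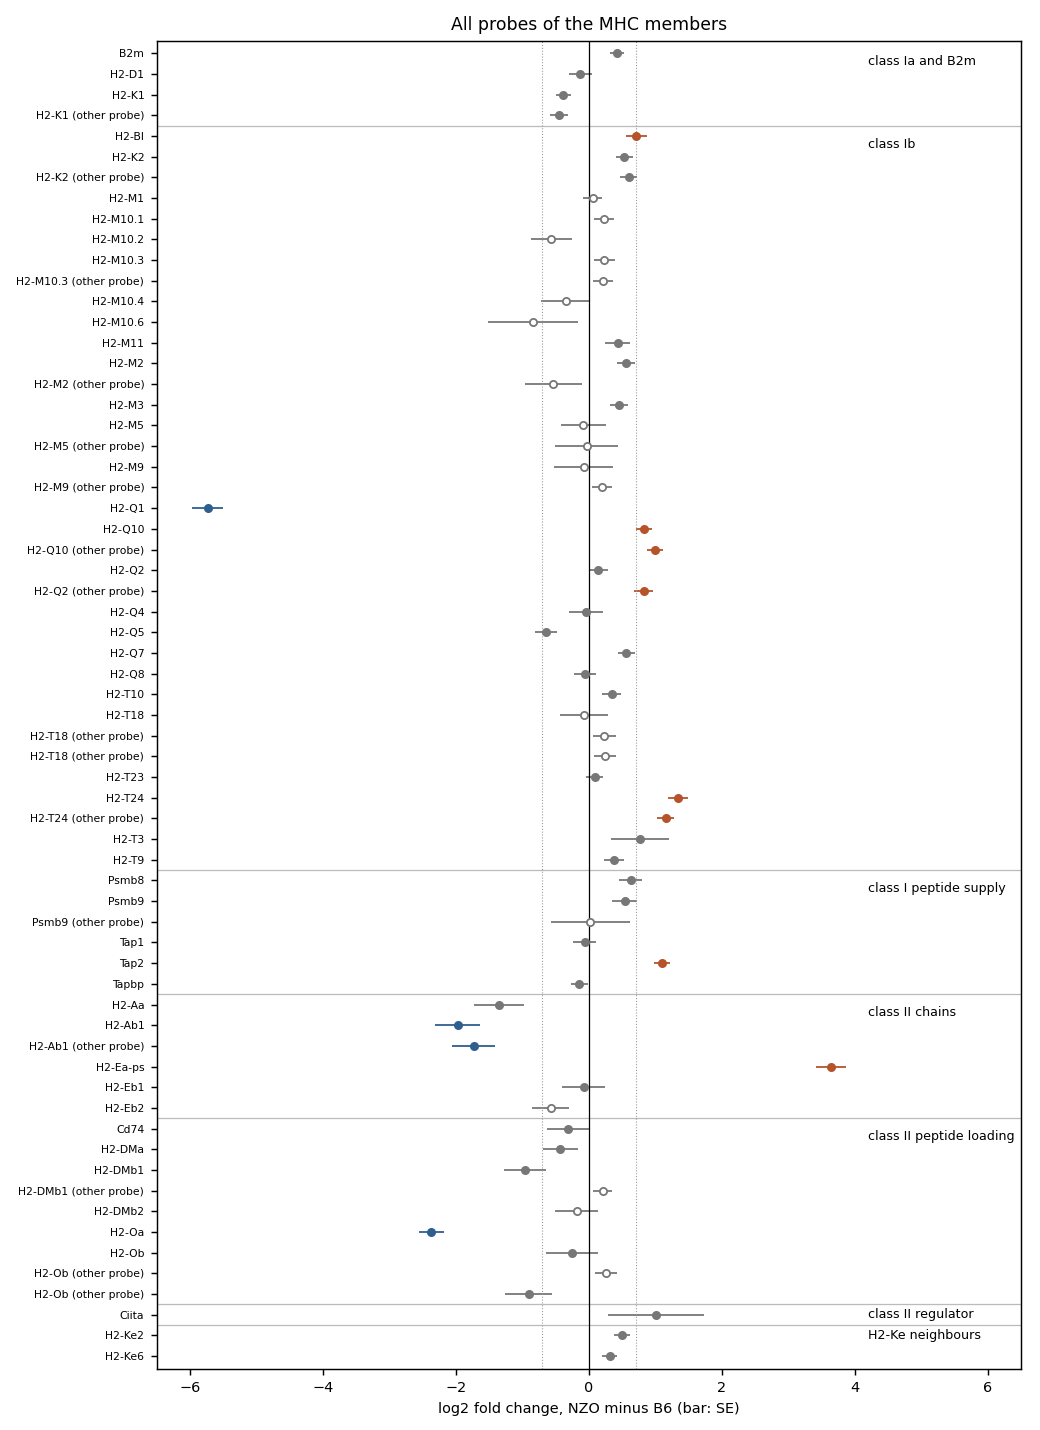
Log2 fold change (NZO minus B6, x axis) of all 64 probes by class, with SE as bars, dotted lines at 0.7 on either side of 0, orange for probes called higher in NZO, blue for called lower and grey for neither. Open points are probes that were not above background throughout either strain, and H2-Q1 at -5.73 and H2-Ea-ps at 3.65 lie farthest from 0.

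Of the class II chain genes, H2-Ea-ps was higher and H2-Ab1 lower in NZO, and H2-Aa, H2-Eb1 and H2-Eb2 were not called. H2-Ea-ps, the E alpha chain, measured -2.22, -2.45, -2.57 and -3.15 in NZO 003, 007, 009 and 011. In B6 it measured -6.25, -6.14, -6.59 and -6.00 in mice 009, 010, 011 and 015. All NZO arrays were above background and no B6 array was, so NZO was at least 3.24-fold higher (fitted log2 fold change 3.65 ± 0.23 SE, adjusted p = 9.98e-05). The bound sets the NZO mean against the B6 mean of the lowest signal still called above background. Without B6 015 the log2 fold change was 3.73, and within the slide it was 3.85, or 3.92 for NZO 003 minus B6 010. With normexp background correction, which pulls dim values together, it was 0.64 and under the threshold of 0.7. With the deposited table it was 1.13 and was called. H2-Eb1, the E beta chain, measured 3.90, 4.24, 3.82 and 3.53 in NZO and 3.72, 3.61, 3.56 and 4.92 in B6. The strains overlapped, with a log2 fold change of -0.08 ± 0.32 (adjusted p = 0.917) that turned to 0.24 without B6 015. Within the slide it was -0.36, and NZO 003 minus B6 010 gave 0.29. H2-Eb2, a further E beta gene, was not above background on any array.

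H2-Ab1, the A beta chain, fell by 1.98 on the log2 scale in NZO. It measured 2.30, 2.69, 2.14 and 1.96 in NZO and 4.03, 3.78, 3.93 and 5.26 in B6. No NZO mouse reached the lowest B6 mouse, and the means were 2.27 ± 0.31 (SD, n = 4) and 4.25 ± 0.68 (SD, n = 4), with a limma adjusted p of 0.0146. The call was lost with the methods' t-test at the adjusted threshold used here (adjusted p = 0.103, and 0.00192 to 0.31 over all alternatives). The study's methods state a p of at most 0.05 and name no adjustment for it. The probe with the other base at the difference shown above gave a log2 fold change of -1.73 ± 0.32 (adjusted p = 0.021), with 2.29, 2.81, 2.15 and 2.01 in NZO and 3.84, 3.62, 3.76 and 4.97 in B6. Both forms of the probe thus read lower in NZO. Without B6 015 the log2 fold changes were -1.64 and -1.43 (adjusted p = 0.00635 and 0.0147), and within the slide they were -2.22 and -2.0. These values were nearer to 0 without B6 015, with -1.48 and -1.33 for NZO 003 minus B6 010.

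H2-Aa, the A alpha chain, measured -0.02, 0.27, -0.50 and -0.42 in NZO and 0.85, 0.73, 0.87 and 2.31 in B6. The strains did not overlap, but the log2 fold change of -1.36 ± 0.37 missed the threshold with an adjusted p of 0.0994. It was -0.99 (adjusted p = 0.0604) without B6 015 and -1.54 within the slide, where NZO 003 minus B6 010 alone gave -0.75. The adjusted p was 0.041 with dim probes left out of the fit, 0.0419 with normexp background correction and 0.0326 with the deposited table, and over all alternatives it ran from 0.0326 to 0.522.

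**Figure D2:**
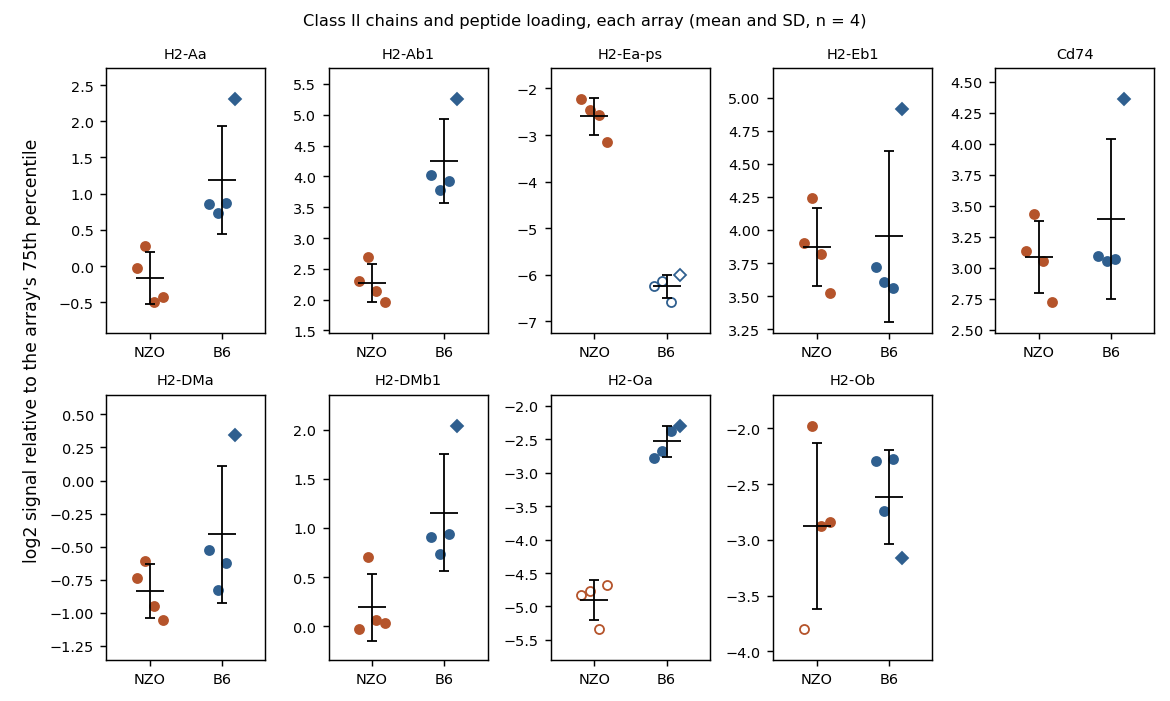
Log2 signal relative to the 75th percentile of the array (y axis, scaled per panel) of 9 class II genes on each array, with the mean and SD of 4 mice in black. Filled points are above background and the diamond is B6 015: H2-Ea-ps is above background in NZO alone, H2-Oa in B6 alone, and the diamond leads the B6 mice in every panel but H2-Ob.

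Among the genes of class II peptide loading, 1 of 6 was called. H2-Oa, the alpha chain of the DO molecule that restrains DM mainly in B cells, measured -4.83, -4.76, -5.34 and -4.69 in NZO. In B6 it measured -2.78, -2.67, -2.37 and -2.30. It was above background on the 4 B6 arrays and on no NZO array, so NZO was at least 3.05-fold lower (fitted log2 fold change -2.37 ± 0.19, adjusted p = 0.000379). Leaving out B6 015 gave -2.30, and the value within the slide was -2.34, or -2.15 for NZO 003 minus B6 010. With normexp background correction the log2 fold change was -0.28 and with the deposited table it was -0.65, neither of which passed the threshold of 0.7. Its partner H2-Ob gave -0.26 ± 0.39 (adjusted p = 0.753) at its brightest probe, above background on 3 NZO and 4 B6 arrays, and -0.44 without B6 015. Within the slide this probe gave -0.85, and NZO 003 minus B6 010 gave -1.06, with NZO 003 not above background. Another probe was above background on 4 B6 arrays but on 1 NZO array. Its fitted log2 fold change of -0.91 ± 0.35 (adjusted p = 0.252) was -0.88 without B6 015, -0.10 with the deposited table and 0.015 with normexp background correction. The B cell markers Cd79b, Cd79a and Ms4a1 had log2 fold changes of -0.73, -0.10 and -0.52, none of them called, and Ms4a1 was above background on 3 NZO arrays. Their summed signal with Pax5, which was at background on all arrays, was 0.826, 0.824, 1.11 and 0.733 in NZO 003, 007, 009 and 011 and 1.30, 1.28, 1.47 and 1.0 in B6 009, 010, 011 and 015. The part of B cells in the H2-Oa value was not tested.

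Cd74, the invariant chain that escorts class II molecules, measured 3.13, 3.43, 3.05 and 2.72 in NZO and 3.09, 3.05, 3.07 and 4.36 in B6. Apart from B6 015 the B6 values lay within the NZO range, and the log2 fold change went from -0.31 ± 0.32 (adjusted p = 0.634) to 0.01 without this mouse. Within the slide it was -0.57, against 0.08 for NZO 003 minus B6 010. The DM chains exchange peptides in class II molecules. H2-DMa measured -0.74, -0.61, -0.95 and -1.06 in NZO and -0.52, -0.83, -0.62 and 0.35 in B6, with a log2 fold change of -0.43 ± 0.26 (adjusted p = 0.495), or -0.18 without B6 015. Its value within the slide was -0.49, and NZO 003 minus B6 010 gave 0.09. H2-DMb1 measured -0.03, 0.70, 0.06 and 0.03 in NZO and 0.91, 0.74, 0.94 and 2.04 in B6. These strains were separated by a small gap, and the log2 fold change was -0.96 ± 0.32 (adjusted p = 0.171), or -0.67 without B6 015. The value of H2-DMb1 within the slide was -1.42, and NZO 003 minus B6 010 gave -0.77. Another probe of H2-DMb1 was not above background on any array (log2 fold change 0.21). H2-DMb2 was at background on all arrays.

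**Figure D3:**
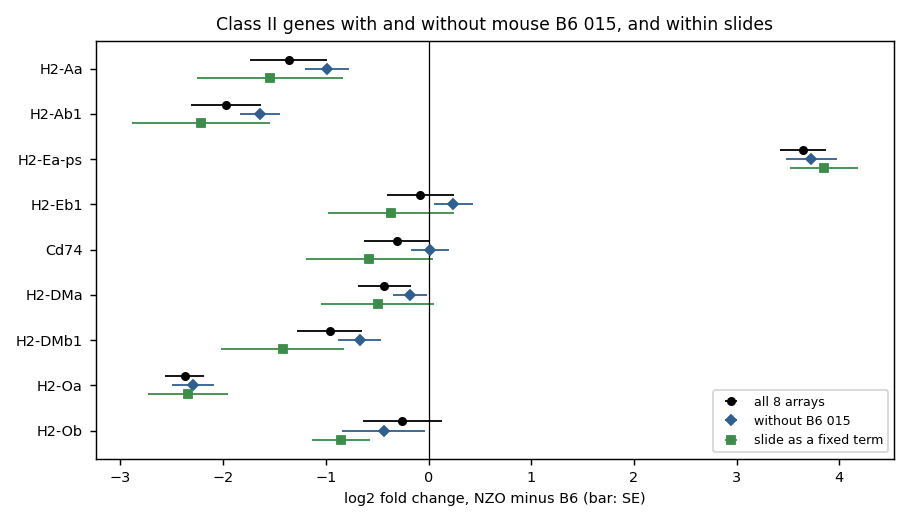
Log2 fold change (NZO minus B6, x axis, bars SE) of 9 class II genes with all arrays (black), without B6 015 (blue) and with a fixed slide effect (green, 3 arrays with B6 015 among them). H2-Ab1, H2-Aa, H2-DMa, H2-DMb1, H2-Oa and H2-Ob stay below 0 and H2-Ea-ps above 0 in all 3 fits. Cd74 and H2-Eb1 change sign without B6 015.

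Ciita, the master switch of class II transcription, was read by 1 probe with -3.25, -3.73, -3.27 and -0.26 in NZO and -4.15, -3.17, -3.40 and -3.82 in B6. The value of NZO 011 alone lay far above the others, and the log2 fold change of 1.01 ± 0.73 (adjusted p = 0.514) was 0.22 without it and 0.95 without B6 015. The Ciita probe shares 20 bases in a row with probes of Cbln2, Prg4 and Tenm1, so its signal may not be that of Ciita alone.

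In RefSeq promoters (GRCm38.p6, 250 bases before to 50 after the start), the Y box CTGATTGG, a part of the class II promoter module, was looked for on both strands. It occurred in 4.10% of 32851 promoters. Of the 8 class II genes with a promoter in the table, 4 had it (H2-Aa, H2-Eb1, H2-Eb2 and H2-Oa), as did 9 of 17 class Ib genes. H2-Ab1, H2-Ea, Cd74 and Ciita have no entry. The 100 bases before the start are shown for the 3 class II genes with the motif that were above background, with the motif in capitals.
H2-Aa, chr17:34287824-34287923, minus strand: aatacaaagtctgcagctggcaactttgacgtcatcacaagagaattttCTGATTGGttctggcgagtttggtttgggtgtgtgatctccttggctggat
H2-Eb1, chr17:34305767-34305866, plus strand: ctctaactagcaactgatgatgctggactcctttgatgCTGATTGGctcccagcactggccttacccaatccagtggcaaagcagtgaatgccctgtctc
H2-Oa, chr17:34092279-34092378, plus strand: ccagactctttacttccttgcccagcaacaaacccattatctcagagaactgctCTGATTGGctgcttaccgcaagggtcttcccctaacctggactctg
The first base of the motif lies at -51, -62 and -46 relative to the start. The log2 fold changes of these genes were -1.36, -0.08 and -2.37, so the motif was present in genes with and without a called difference.

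Among the markers of other liver cells, Clec4f, Marco, Cd209a and Cd3d were called, each lower in NZO. Of 7 markers of macrophages and Kupffer cells, none was higher and 2 were lower in NZO. Clec4f, a lectin of Kupffer cells, had a log2 fold change of -1.13 (adjusted p = 0.00398), and Marco, a scavenger receptor, had -1.83 (adjusted p = 0.0315). Lyz2, the lysozyme of macrophages, went the other way with 0.41 (adjusted p = 0.261). The summed signal of the list, of which Csf1r was the brightest, was 90.1, 93.1, 72.5 and 77.3 in NZO 003, 007, 009 and 011. In B6 009, 010, 011 and 015 it was 109, 121, 138 and 179, so the strains did not overlap. Of 6 markers of dendritic cells, Cd209a was above background on all B6 arrays and on no NZO array, so NZO was at least 1.78-fold lower (fitted log2 fold change -2.16, adjusted p = 0.00261), and Xcr1 was at background on all arrays. Their summed signal was 81.0, 110, 139 and 153 in NZO and 125, 138, 127 and 160 in B6, nearly all of it from Siglech. Itgax, above background on 2 NZO and 4 B6 arrays, had a log2 fold change of -2.04 (adjusted p = 0.0859). Flt3, Zbtb46 and Siglech had -0.92, -0.33 and -0.22, and like Itgax they were not called. Of 4 T cell markers, Cd3d was lower in NZO (log2 fold change -1.10, adjusted p = 0.0454). The others were not called and went both ways, with log2 fold changes of -0.84 for Cd3g, 0.33 for Cd3e and 0.80 for Cd8a. The T cell sum, most of it from Cd3e, was 4.57, 12.5, 5.75 and 5.90 in NZO and 7.14, 3.98, 6.01 and 5.21 in B6. Of the markers of hepatocytes (5), leukocytes in general (3) and sinusoidal endothelium (4) none was called by limma, also at the unadjusted p with the same fold change. The leukocyte sum was 2.61, 2.82, 2.80 and 2.60 in NZO and 3.06, 3.39, 3.62 and 4.14 in B6, with no overlap. The 5 hepatocyte markers were above background on all arrays, and their sum was between 3789 and 3917 in NZO and between 3002 and 3766 in B6, with Alb the brightest. In whole tissue, fewer cells of a type and less RNA per cell cannot be told apart, and the part of these cells in the class II values was not tested.

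**Figure D4:**
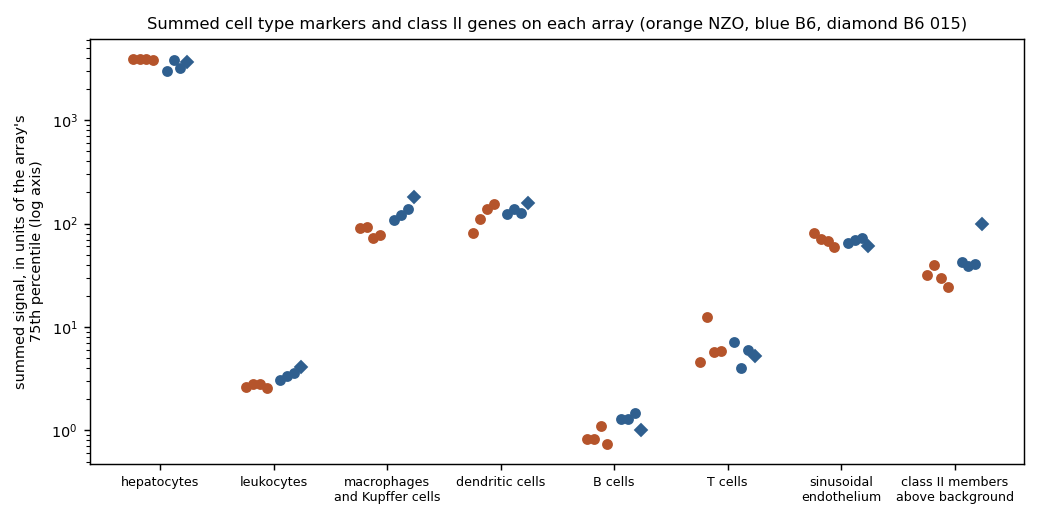
Summed signal of each marker list and of the 9 class II genes above background on each array, in units of the 75th percentile (log axis), orange for NZO, blue for B6 and a diamond for B6 015. The macrophage sum is lower in all NZO mice than in all B6 mice, and the class II sum of B6 015 is 99.8 where the other B6 mice reach 42.8.

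Neither classical heavy chain nor beta-2-microglobulin was called. H2-K1 measured 7.91, 7.76, 7.97 and 7.82 in NZO and 8.24, 8.18, 8.21 and 8.39 in B6. The strains did not overlap, and the log2 fold change was -0.39 ± 0.11 (adjusted p = 0.117) at this probe and -0.45 ± 0.13 (adjusted p = 0.114) at the other. That other probe shares a run of 29 bases with the probe of H2-T23, so it may read more than 1 heavy chain.
Run shared by the H2-K1 and H2-T23 probes: tggagctgtggtggcttttgtgatgaaga
H2-D1 measured 6.88, 6.63, 6.62 and 6.73 in NZO and 6.73, 6.57, 6.80 and 7.29 in B6, with a log2 fold change of -0.13 ± 0.17 (adjusted p = 0.723). This value changed sign to 0.02 without B6 015. B2m, the light chain of all class I molecules, measured 8.78, 8.64, 8.62 and 8.68 in NZO and 8.25, 8.16, 8.25 and 8.35 in B6. All NZO values lay above the B6 values, yet the log2 fold change of 0.43 ± 0.11 had an adjusted p of 0.0705.

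In the peptide supply of class I, Tap2 was higher in NZO and the other 4 genes were not called. Tap2 forms the peptide pump together with Tap1. It measured 4.71, 4.77, 4.94 and 4.72 in NZO and 3.63, 3.59, 3.78 and 3.74 in B6, with no overlap. The log2 fold change was 1.10 ± 0.11 (2.14-fold, adjusted p = 0.00127), and within the slide it was 1.04. Tap1 measured 1.44, 0.87, 1.18 and 1.27 in NZO and 1.21, 1.26, 1.01 and 1.53 in B6, and its log2 fold change was -0.06 ± 0.17 (adjusted p = 0.867). The subunits of the pump thus gave unlike values at their probes, though the difference between them was not tested.

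Tapbp, which holds empty class I molecules at the pump, measured 3.72, 3.53, 3.65 and 3.59 in NZO and 3.69, 3.71, 3.62 and 4.04 in B6 (log2 fold change -0.15 ± 0.13, adjusted p = 0.579). Psmb8 and Psmb9 are catalytic subunits of the immunoproteasome. Psmb8 measured 4.58, 4.38, 4.40 and 4.35 in NZO and 3.61, 3.60, 3.76 and 4.24 in B6, with a log2 fold change of 0.63 ± 0.17 (adjusted p = 0.0907). All NZO values lay above those of B6, and without B6 015 the log2 fold change was 0.77 (adjusted p = 0.021) and passed the threshold. Psmb9 measured 4.80, 4.60, 4.38 and 4.56 in NZO and 4.06, 3.73, 3.94 and 4.46 in B6, with a log2 fold change of 0.53 ± 0.18 (adjusted p = 0.188). Another probe of Psmb9, above background on 2 NZO arrays and 1 B6 array, gave 0.02 ± 0.59.

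**Figure D5:**
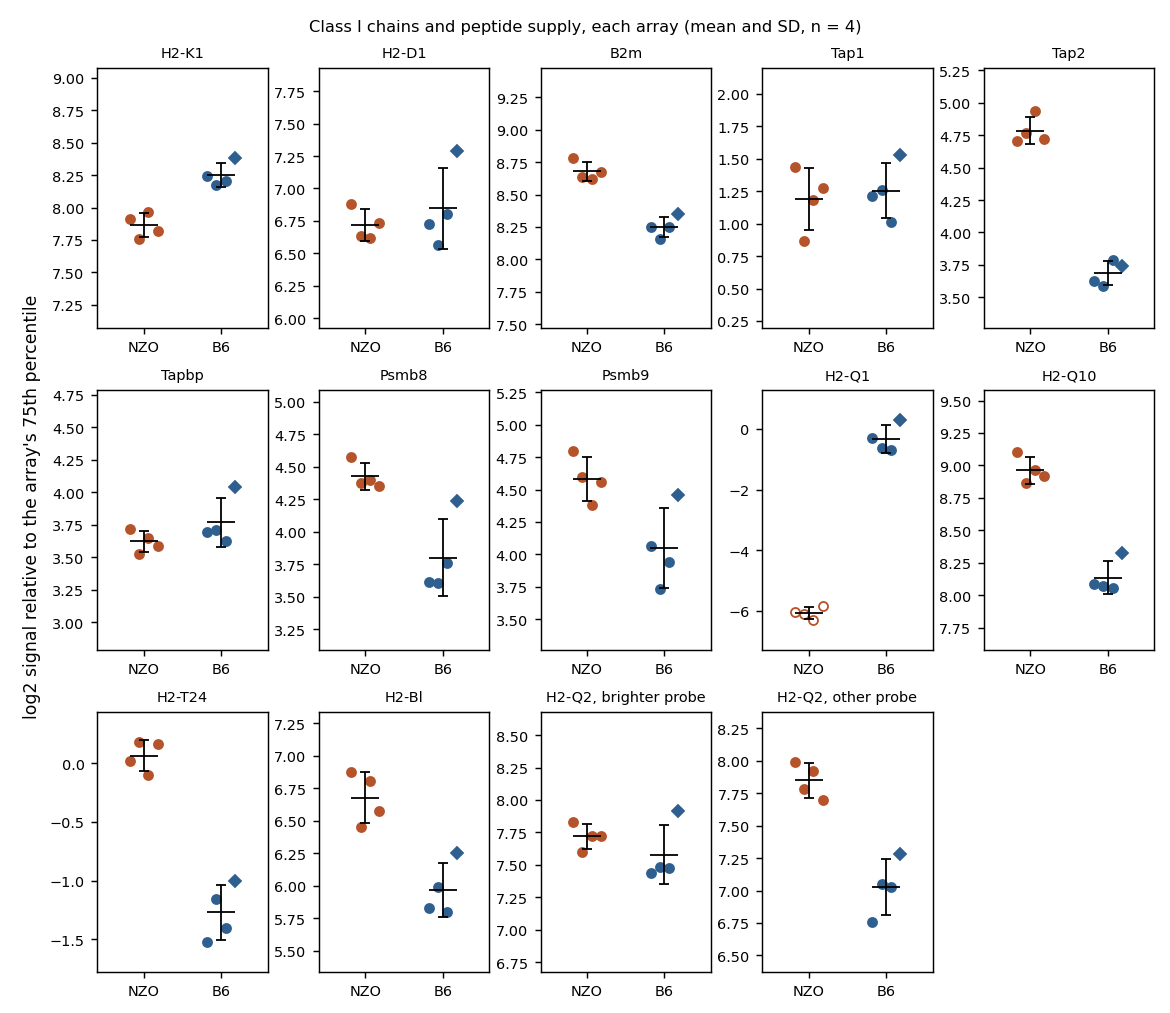
Log2 signal relative to the 75th percentile of the array (y axis, scaled per panel) of class I chains and peptide supply genes on each array, with the mean and SD of 4 mice in black, open points not above background and a diamond for B6 015. Tap2, H2-Q10, H2-T24 and H2-Bl are higher in all NZO mice, H2-Q1 is above background in B6 alone, and the panels of H2-Q2 show 2 probes that differ.

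Of 26 class Ib genes, 3 were higher and 1 was lower in NZO. H2-Q1 (chr17:35461859-35461918, plus strand, mm9) measured -6.03, -6.11, -6.30 and -5.85 in NZO. In B6 it measured -0.28, -0.64, -0.71 and 0.29. It was above background on all B6 arrays and on no NZO array, so NZO was at least 14.0-fold lower (fitted log2 fold change -5.73 ± 0.23, adjusted p = 1.58e-05), with -5.53 without B6 015 and -5.85 within the slide. With the deposited table the log2 fold change was -2.21 and with normexp background correction it was -1.42, and both were called. No other member had so large a fitted change, and a single probe carried it.

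H2-Q10, a class I chain that the liver secretes, rose in NZO by both probes. The brightest (chr17:35611449-35611508, plus strand, mm9) measured 9.11, 8.86, 8.97 and 8.92 in NZO and 8.09, 8.07, 8.05 and 8.32 in B6. The log2 fold change was 0.83 ± 0.12 (adjusted p = 0.00649), and 0.91 within the slide. The other, in the coding part shown above, gave 0.99 ± 0.12 (adjusted p = 0.00299) with 8.26, 7.94, 8.18 and 7.99 in NZO and 7.15, 7.19, 7.04 and 7.01 in B6. The brightest probe shares 22 bases with the probe of H2-T3.
Run shared by the H2-Q10 and H2-T3 probes: ttgtggaggaaataaatggcag
H2-T3 measured 0.25, 0.98, -0.86 and -0.61 in NZO and -0.44, -0.78, -1.50 and -0.59 in B6, a log2 fold change of 0.77 ± 0.43 (adjusted p = 0.457) with overlapping strains.

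The probes of H2-Q2 gave different results. The probe that overlaps the coding probe of H2-Q10 measured 7.99, 7.78, 7.92 and 7.70 in NZO and 6.76, 7.05, 7.02 and 7.28 in B6, a log2 fold change of 0.82 ± 0.15 (adjusted p = 0.0168). The brighter probe measured 7.83, 7.60, 7.72 and 7.72 in NZO and 7.44, 7.48, 7.48 and 7.92 in B6, a log2 fold change of 0.14 ± 0.14 (adjusted p = 0.623). Without B6 015 it was 0.25 (adjusted p = 0.339). The files place the probes of H2-Q2, in this order, at chr17:35460007-35460066 and chr17:35482113-35482172 (plus strand, mm9). The first lies nearer to the probe of H2-Q1 than to the other H2-Q2 probe, so what it reads is uncertain, and H2-Q2 was not counted as a called gene.

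H2-T24 was higher in NZO at both probes. The brightest measured 0.02, 0.18, -0.10 and 0.16 in NZO and -1.52, -1.16, -1.40 and -1.0 in B6, with a log2 fold change of 1.34 ± 0.15 (adjusted p = 0.00201), or 1.10 within the slide. The other gave 1.15 ± 0.12 (adjusted p = 0.00154), but 0.62 with the deposited table and 0.42 with normexp background correction, both under the threshold of 0.7. H2-Bl measured 6.87, 6.45, 6.81 and 6.58 in NZO and 5.83, 5.99, 5.80 and 6.25 in B6, with a log2 fold change of 0.71 ± 0.16 (adjusted p = 0.0429). This call was at the edge of both thresholds and was lost in 13 of 19 alternative settings, among them the omission of 6 of the 8 mice, each in turn.

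The other 21 class Ib genes had no called probe, and 12 of them were above background on all 4 arrays of a strain at their brightest probe. For H2-M2, 1 of the 12, the probes disagreed. Its brightest had means of 6.56 in NZO and 6.00 in B6, and its other was not above background on any array. The log2 fold changes of these 12 ran from -0.65 for H2-Q5 to 0.77 for H2-T3. H2-K2, a K-region relative of the classical chain that RefSeq lists as a transcript without a protein, had 0.53 ± 0.13 and 0.60 ± 0.13 at its probes (adjusted p = 0.0592 and 0.0381), the latter short of the fold change needed. H2-Q7 had 0.56 ± 0.13 (adjusted p = 0.0504), and its probe shares a run of 28 bases with a probe of H2-K2.
Run shared by the H2-K2 and H2-Q7 probes: tctcctgtgacatccagagccctcagtt
H2-M3, which presents bacterial formyl peptides, had 0.45 ± 0.14 (adjusted p = 0.137), and H2-T23, the mouse counterpart of HLA-E, had 0.08 ± 0.13 (adjusted p = 0.761). H2-M1, H2-M10.1, H2-M10.2, H2-M10.3, H2-M10.4, H2-M5 and H2-T18 were not above background on any array. In all, 9 of the 64 member probes share 20 bases in a row with a probe of another gene name, and 3 list accessions of more than 1 gene (H2-M10.3 with H2-M10.5, H2-Q7 with H2-Q9, H2-Q8 with H2-Q6). For these genes the signal cannot be assigned to a single chain. Only runs without a difference between array probes were looked for, so the overlapping coding probes of H2-Q10 and H2-Q2 are not among the 9. Binding to other transcripts was not examined for any member. The probe of H2-Bl had no coordinate and no match in the RefSeq gene table.

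H2-Ke2, listed in RefSeq as the chaperone subunit Pfdn6, and H2-Ke6, a steroid dehydrogenase, lie among the MHC genes but encode no MHC chain. Their log2 fold changes were 0.49 ± 0.12 (adjusted p = 0.0584) and 0.31 ± 0.11 (adjusted p = 0.223).

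Of 22 further genes of antigen presentation, 21 were on the array, of which none was higher and 1 was lower in NZO by limma, with the same counts at the unadjusted p. Nlrc5, the class I counterpart of Ciita, measured -0.04, -0.05, 0.36 and 0.56 in NZO and 1.30, 1.08, 1.25 and 1.69 in B6. The strains did not overlap at this probe (log2 fold change -1.12 ± 0.20, adjusted p = 0.0165). Its other probe gave 0.54 ± 0.25 (adjusted p = 0.346), so the direction for Nlrc5 depended on the probe. Lgmn, a protease that processes antigens and the invariant chain in lysosomes, had -0.56 ± 0.12 with an adjusted p of 0.0334, short of the fold change needed. Ctss, which cuts the invariant chain, had -0.33 ± 0.16 (adjusted p = 0.391), and Psmb10, the remaining immunoproteasome subunit, had 0.01 ± 0.17 (adjusted p = 0.985).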

How the data were processed

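Agilent 1-colour arrays of liver RNA of 4 NZO and 4 B6 mice were used. Scanner files, 1 per array, were deposited with intensity values made by Agilent Feature Extraction (11.0.1.1 per the file headers, 9.1 per the submitters' processing notes), and a table that equalled the raw median intensities. The processed signal was taken as log2 without control and outlier spots, each array's 75th percentile was subtracted, and spots of a probe were averaged. All 55681 probes were kept. limma 3.58.1 in R 4.3.3 compared the strains, after a test on simulated data, and a gene was read at its probe with the highest mean. A probe was above background on an array when most of its spots were flagged so. Named were the classical chains, the loading, supply and regulator genes, and other H2- genes with a called probe. A further cell type marker is not reported here. The members and lists were chosen with earlier results of these data known. Samples are separate mice, and their number limits the precision. Promoter sequences came from RefSeq (GRCm38.p6), and probe coordinates are those of the files (mm9). Of the 64 member probes, 52 matched the RefSeq gene table by accession. Alternatives were the unadjusted p, the methods' t-test with Welch correction, a filter on dim probes, normexp (offset 50), quantile normalization, the deposited table, outlier spots, slide, scan day, mouse number, the mean over probes of a gene, another background flag, and leaving out each mouse.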

Additional observations from a re-analysis of the deposited data

Results flagged for a closer look

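Of 46 groups of 4 arrays (the genes named above in each strain), 9 held a mouse far from the other 3 of its strain. Chance gives about 1 in 20 for a single group, but the groups share the same mice. They are thus not independent, and the count of 9 cannot be set against that rate. B6 015 was that mouse 7 times, with log2 levels of 2.31 for H2-Aa, 5.26 for H2-Ab1, 4.92 for H2-Eb1, 4.36 for Cd74, 2.04 for H2-DMb1, 8.32 for H2-Q10 and 7.92 for H2-Q2 at its brighter probe, each above the rest of B6. NZO 007 was high for H2-DMb1 at 0.70, and NZO 011 was high for Ciita at -0.26. The macrophage and Kupffer cell markers were also highest in B6 015 in 6 of 7 cases, those of dendritic cells in 3 of 6 and those of B cells in 0 of 4. The part of these cells in the values was not tested.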

How the results depend on the processing

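The counts of higher probes (8), higher genes (5), lower probes (4) and lower genes (3) stayed within 1.5 times under quantile normalization, the filter on dim probes, the deposited table, outlier spots kept, the slide as a random block and the scan day as a term, and the 44 probes above background became 48 with the other flag. Normexp gave 5 higher probes and 3 higher genes. The unadjusted p gave 7 lower probes and 5 lower genes, and the methods' t-test 2 lower probes, without those of H2-Ab1 (adjusted p = 0.103 at the brightest, and 0.00192 to 0.31 over its alternatives). A fixed slide effect, which leaves 3 arrays to compare the strains, gave 0 in all 4 counts, as did the replicate block by mouse number. Member counts at an unadjusted p are not given for these limma fits or the main fit, since no share of all probes at that p was at hand. The numbers do not pair the mice (correlations -0.26 for 009 and -0.0041 for 011). Leaving out 1 mouse gave 6 to 9 higher probes, 4 to 6 higher genes, 3 to 4 lower probes and 3 lower genes. Log2 fold changes turned sign for uncalled genes only. Leaving out 1 mouse gave -0.22 to 0.018 for H2-D1, -0.21 to 0.24 for H2-Eb1, -0.42 to 0.014 for Cd74, -0.38 to 0.062 for H2-DMb2, -0.55 to 0.053 for H2-Ob and -0.15 to 0.043 for Tap1. The replicate block gave 0.033 for H2-Eb1 and 0.12 for Tap1, and the slide effect 0.042 for Tap1 and 0.21 for H2-DMb2. Normexp gave 0.074 for H2-Eb2, 0.095 for H2-DMb2 and 0.051 for H2-Ob, the deposited table gave 0.047 for H2-Eb2 and 0.035 for H2-DMb2, and the scan day 0.017 for H2-DMb2. The cause was not tested. Signal over background limits H2-Ea-ps, H2-Oa and H2-Q1 to bounds, and normexp left the log2 fold change of H2-Ea-ps at 0.64, under the threshold.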
